A study of Mus musculus with 4 samples.

Results

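Proteins with a lone membrane segment at their very C-terminus, called tail-anchored proteins, leave the ribosome before that segment can be recognised, so they are delivered to the endoplasmic reticulum (ER) after translation. In mammalian cells the co-chaperone Sgta first captures the segment, a complex of Bag6, Get4 and Ubl4a receives it, the ATPase Get3 carries it through the cytosol, and the receptor formed by Get1 and Camlg takes it from Get3 and inserts it into the ER membrane. SNARE proteins of vesicle fusion and the Sec61b subunit of the translocon are well-known clients. The mRNA levels of these 7 delivery genes were examined in mouse embryonic stem (ES) cells with and without Snai1, which encodes Snail, a zinc finger repressor that binds E-box sequences.

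The 7 genes were listed by name as a pathway, and the pathway was chosen by the difference between knockout and control seen for Get3, so the same contrast is given here as a description and is not independent evidence. Members were all probe sets that the platform annotation assigns to exactly 1 gene, that gene being listed. This gave 8 probe sets for 6 genes, out of 34945 such probe sets for 18193 genes. Get3 had 1 probe set, Get1 had 2, Get4 had 2, and Camlg (listed as Caml, which has the same gene ID), Bag6 and Sgta had 1 each. Ubl4a had none of its own, because both of its probe sets are also assigned to the overlapping gene model Gm44504.

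RNA came from 4 samples, each hybridised to its own single-colour Affymetrix array. In such bulk RNA, fewer cells of a type and less RNA per cell cannot be told apart. The knockout group was 2 arrays of Snai1 knockout ES cells (titles KO.ES), and the control group was 2 arrays of control ES cells (titles F/F.ES, an abbreviation the labels do not expand). All 4 samples were mouse ES cells kept in leukaemia inhibitory factor with feeder cells and given no treatment. The labels call the arrays of a group biological replicates without saying whether cultures, clones or days separate them, give neither the strain nor the number of ES lines, and add the words knock out to the source name of the controls, so every direction rests on the titles and the genotype field and the spread between replicates may be partly technical.

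ES cell identity was checked on 8 marker genes, all of which lay above the background range, with means between 9.60 and 14.12 (log2). Over 23 measured fibroblast markers, which feeder cells would add, the replicate 1 arrays averaged 8.08 (knockout) and 8.17 (control) and the replicate 2 arrays 7.42 and 7.51. These fibroblast marker levels varied more with the replicate number than with the group. The 8 ES cell markers averaged 11.84 and 11.71 on the knockout arrays against 11.16 and 11.23 on the control arrays. Those averages varied more with the group than with the replicate number. The Snai1 probe set read 3.79 and 4.04 on the knockout arrays against 4.41 and 4.69 on the control arrays. All 4 values lie inside the background range, 2.91 to 4.77, which was taken from the 27 Bacillus control probe sets, and no source used here tells whether the probe set lies in the deleted part. The 3' control probe set of Actb exceeded the 5' one by 1.11 and 0.80 in the knockout arrays and by 3.02 and 2.97 in the control arrays (log2), and for Gapdh the gaps were 0.40 and 0.27 against 1.24 and 1.48. The mean gap was also smaller in the knockout for Tfrc (by -1.01) but hardly differed for Pcx (-0.06). The Actb gap, a measure of how much 5' sequence was labelled, separated the groups as completely as the genotype, so genotype and 5' labelling cannot be told apart for any difference below.

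The sequences upstream of the annotated starts are shown because the deleted factor acts on promoters. The RefSeq promoter table (GRCm38.p6) held 8 windows for 6 of the 7 genes. Camlg had no entry. Each window covers 250 bases before and 50 bases after a start, and the 250 upstream bases are printed for the 3 genes with higher values in the knockout (Get3, Bag6 and Sgta) and for Get1, whose main probe set was lower. Get3 lies on the minus strand (chr8:85025288-85025537), Sgta on the minus strand (chr10:81060272-81060521, the more upstream of its 2 windows), Bag6 on the plus strand (chr17:35134963-35135212) and Get1 on the plus strand (chr16:96145150-96145399). The Bag6 gene is annotated from base 35135156, so the end of its printed window lies inside the annotated gene. Letters in capitals mark the E-box CACGTG, which reads the same on both strands.
Get3: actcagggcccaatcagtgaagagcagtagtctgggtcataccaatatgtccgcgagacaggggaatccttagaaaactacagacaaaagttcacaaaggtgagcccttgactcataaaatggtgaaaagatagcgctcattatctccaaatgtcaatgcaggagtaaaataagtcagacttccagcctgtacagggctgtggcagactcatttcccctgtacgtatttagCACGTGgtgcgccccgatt
Sgta: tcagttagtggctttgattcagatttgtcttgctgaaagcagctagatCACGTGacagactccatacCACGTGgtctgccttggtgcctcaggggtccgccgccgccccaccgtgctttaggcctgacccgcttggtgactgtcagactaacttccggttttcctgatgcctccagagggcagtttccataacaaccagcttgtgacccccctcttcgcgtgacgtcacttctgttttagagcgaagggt
Bag6: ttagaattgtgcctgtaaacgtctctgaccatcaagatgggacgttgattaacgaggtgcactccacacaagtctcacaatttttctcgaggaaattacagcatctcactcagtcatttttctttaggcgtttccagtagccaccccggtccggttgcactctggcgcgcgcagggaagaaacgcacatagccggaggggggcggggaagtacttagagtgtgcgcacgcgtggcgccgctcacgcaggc
Get1: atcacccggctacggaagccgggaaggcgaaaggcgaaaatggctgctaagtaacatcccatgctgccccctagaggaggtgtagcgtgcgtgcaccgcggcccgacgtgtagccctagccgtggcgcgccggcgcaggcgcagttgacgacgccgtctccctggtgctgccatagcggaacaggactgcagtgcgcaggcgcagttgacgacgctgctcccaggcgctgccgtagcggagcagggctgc

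The E-box bound by Snail, CACCTG or CAGGTG on the other strand, was not found in any window of Get3, Sgta, Bag6, Get1 or Get4, and Ubl4a had 1 match, starting 117 bases before its start. Over all 32851 windows of the table, 20.2% held this motif. The other E-box, CACGTG, which does not overlap the first and was searched for after the sequences had been read, starts 19 bases before and again at base 4 after the start of Get3, the latter beyond the printed bases. In the upstream Sgta window it starts 202 and 183 bases before the start, and each of the 2 Get4 windows held 1 match. The other Sgta window and those of Bag6, Get1 and Ubl4a held none. Of all windows 7.2% held CACGTG at least once and 0.594% held it at 2 or more positions. The upstream bases of Get1 were 67.2% G or C, those of Bag6 54.4%, those of the printed Sgta window 54.8% and those of Get3 46.8%, against a median of 52.4% over all windows. A match of letters is a description of the window and not evidence of binding.

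The route as a whole did not move one way. In the brightest probe set of each gene, Get3 (1.88) and Sgta (0.71) passed the threshold described next and were higher in the knockout, while Bag6 (0.74), Get4 (-0.02), Camlg (-0.22) and Get1 (-0.52) did not pass it. Among all 18193 genes, each read from its brightest probe set, 754 (4.14%) passed an adjusted p of 0.05 in limma, of which 360 (1.98%) were higher and 394 (2.17%) lower. With a further quantile normalization the split was 527 higher and 337 lower. Of the 6 measured delivery genes 2 were past this threshold, Get3 and Sgta, both higher. In the separate fit of all 34945 probe sets, where 276 (0.79%) passed, 1 of the 8 delivery probe sets did, that of Get3. The median difference of the 6 genes was 0.34 (log2, knockout minus control) against -0.02 over all genes, but the 6 include Get3, whose difference chose the pathway. Without Get3 the median of the other 5 was -0.02, the same as over all genes.

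**Figure D1:**
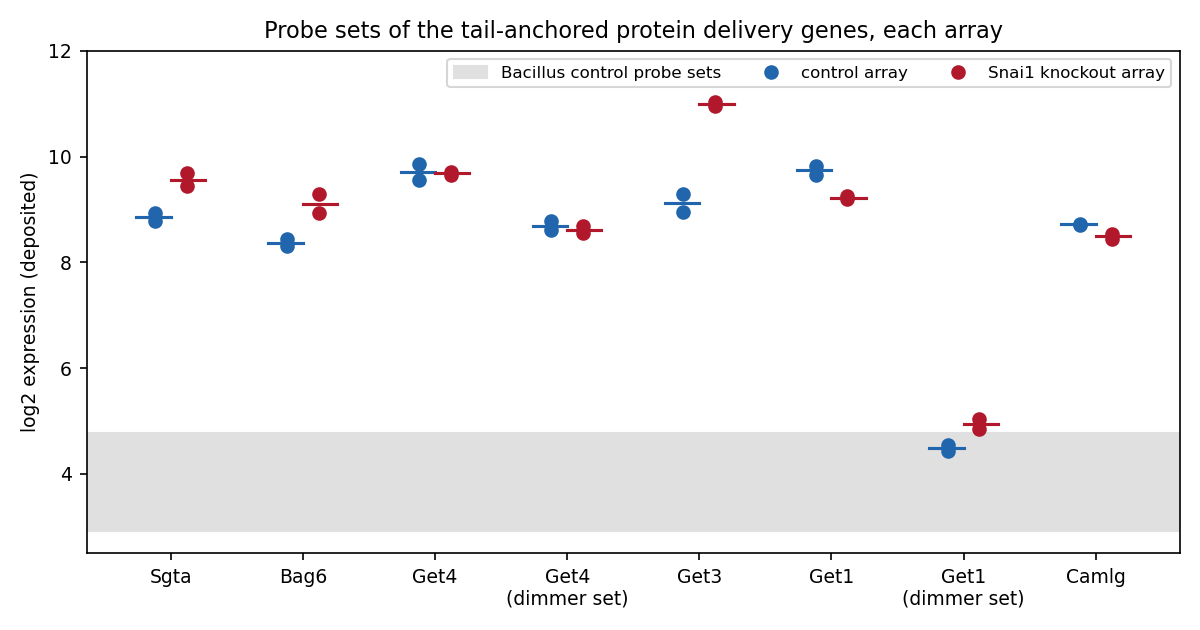
Deposited log2 expression of each delivery probe set on each array (points), with group means as short lines and the background range of the Bacillus control probe sets shaded; the genes run from capture (Sgta) to the ER receptor (Get1, Camlg). The Get3 arrays lie furthest apart, at 11.03 and 10.96 (knockout) against 8.95 and 9.28 (control), while the dimmer Get1 probe set sits at the top of the background range.

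Sgta, the co-chaperone that takes tail-anchored segments from the ribosome, was measured at 9.69 and 9.44 in the knockout arrays and at 8.78 and 8.94 in the control arrays. Both knockout values were above both control values, with 0.50 between the nearest pair. The group means were 9.57 ± 0.17 and 8.86 ± 0.12 (log2, SD, n = 2 each), a difference of 0.71 ± 0.15 (SE) or 1.63-fold. The 95% interval ran from 0.35 to 1.06. The call was fragile. Its limma adjusted p was 0.0494 in the gene fit, next to 0.0532 for Bag6. With all 4 arrays Sgta missed the threshold with an intensity trend (limma adjusted p = 0.064) and with probe sets averaged (0.0561). It also missed it in the fit of all probe sets (0.0702). With 1 array left out, 1 group has a single array, so no call for Sgta is read from those fits. Its difference in them ranged from 0.58 (without knockout replicate 1) to 0.83 (without knockout replicate 2). It was 0.62 without control replicate 1 and 0.79 without control replicate 2.

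Bag6, the scaffold of the pre-targeting complex, which also sends mislocalised proteins to ubiquitination, gave 9.30 and 8.92 on knockout arrays against 8.31 and 8.43 on control arrays. The knockout arrays differed from each other by 0.37, the largest gap within a group among the brightest probe sets of these genes, and still did not overlap the control arrays. The difference was 0.74 ± 0.17 (SE), or 1.67-fold, with a 95% interval from 0.35 to 1.12. It was slightly larger than that of Sgta but just missed the threshold, and it was past it after either renormalization and with either filter on dim genes (0.74 to 0.80). With 1 array left out it was not past it, at 0.55 to 0.92.

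Get4, which links Bag6 to Get3, had 2 bright probe sets that gave like results. The brighter one gave 9.66 and 9.71 for the knockout against 9.56 and 9.85 for the control, so the control arrays enclosed the knockout arrays. Its difference was -0.02 ± 0.15 (SE), with a 95% interval from -0.38 to 0.34. The dimmer one gave 8.55 and 8.69 against 8.62 and 8.77, a difference of -0.08 ± 0.14 (SE). A shift of the size seen for Sgta or Bag6 lies outside the Get4 interval.

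Ubl4a, the ubiquitin-like subunit of the Bag6 complex, can be read only from the probe sets it shares with Gm44504, a gene model for which RefSeq also lists the name Slc10a3-ubl4. The brighter of these gave 9.50 and 9.81 on knockout arrays against 9.55 and 9.63 on control arrays, and the other at 7.46 and 7.22 against 7.51 and 7.75. Group means differed by 0.06 and -0.29. The first overlaps between the groups and the second does not, and neither was part of the fits.

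Get3, the ATPase at the centre of the route, showed the widest separation. It was at 11.03 and 10.96 in the knockout arrays and at 8.95 and 9.28 in the control arrays. The lowest knockout value exceeded the highest control value by 1.68. The means were 11.00 ± 0.05 and 9.12 ± 0.24 (SD, n = 2 each), a difference of 1.88 ± 0.16 (SE), or 3.68-fold, with a 95% interval from 1.51 to 2.25. Only 12 of the 18193 genes had a larger positive difference, against 445 for Bag6 and 493 for Sgta. The difference stayed between 1.71 and 2.05 over 13 other settings and passed the threshold in 12 of them, the exception being the fit without control replicate 2, where it was 2.05. Those counts are for the fit over genes. In the fit over all probe sets Get3 kept its call without control replicate 1 but lost it without each of the other 3 arrays, with differences of 1.85, 1.92 and 2.05. Get3 had a single probe set of its own, so no second probe set could be set beside it.

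Get1, the receptor subunit that inserts the client and belongs to the Oxa1 family of insertases, gave 9.19 and 9.25 on the knockout arrays against 9.65 and 9.83 on the control arrays with its bright probe set. Both knockout arrays were lower than both control arrays by at least 0.40, and the difference was -0.52 ± 0.14 (SE), a 1.43-fold lower level with a 95% interval from -0.85 to -0.20. It did not pass the threshold. The dimmer Get1 probe set went the other way, with 4.85 and 5.04 against 4.54 and 4.44 (0.45 ± 0.14, SE), but both control values were within the background range and both knockout values just above it. With the 2 probe sets averaged, the Get1 difference was -0.03.

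Camlg, the receptor subunit that recruits Get3 to the ER surface, gave 8.45 and 8.53 on the knockout arrays against 8.70 and 8.73 on the control arrays. The arrays of each group were close and did not overlap, but the difference was small, -0.22 ± 0.13 (SE), with a 95% interval from -0.53 to 0.08 that includes 0. Groups were without overlap for 5 of the 6 delivery genes in all, and for 52.3% of all genes.

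**Figure D2:**
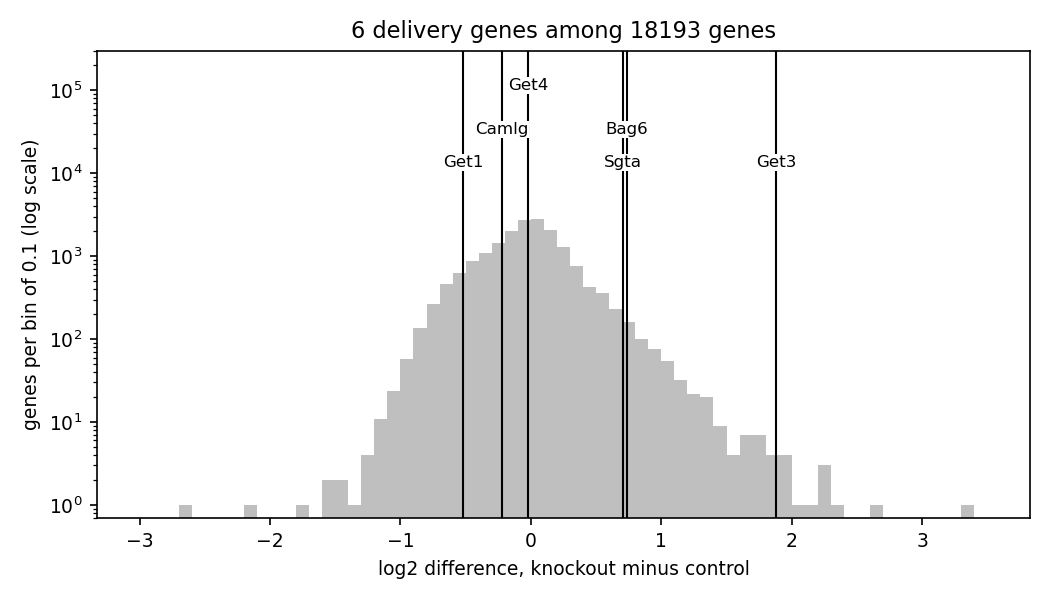
Histogram of the log2 difference, knockout minus control, of all 18193 genes in bins of 0.1 (log-scaled counts), with a vertical line at each delivery gene's brightest probe set. Get3 lies in the far upper tail at 1.88, Bag6 (0.74) and Sgta (0.71) in the upper shoulder, Get4 at the centre, and Camlg (-0.22) and Get1 (-0.52) on the lower side.

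Differences in this series followed the genomic length of genes, so the delivery genes were set beside genes of like length. Restricted to genes averaging at least 6 on the log2 scale, the median difference went from 0.13 for 1106 genes under 5 kb to -0.29 for 1074 genes over 100 kb. Get3 spans 7.36 kb and Camlg 9.41 kb, in a range (5 to 10 kb, 1241 genes) with a median of 0.08 and 6.69% called higher. Bag6 (12.17 kb), Get1 (12.45 kb), Sgta (16.20 kb) and Get4 (17.73 kb) fall in the 10 to 20 kb range, where the median of 1932 genes was -0.03, with 3.42% called higher and 1.76% lower. The quartiles of that range were -0.29 and 0.23. Bag6 (0.74) and Get1 (-0.52 on its bright probe set) are of nearly equal length, and neither passed the threshold. After each array's trend with span and level was removed, the differences were 1.77 for Get3, 0.73 for Sgta, 0.70 for Bag6, 0.02 for Get4, -0.31 for Camlg and -0.55 for Get1, and Get3 and Sgta were again the genes past the threshold. Among 546 genes within the members' own range of span (7.36 to 17.73 kb) and mean level (8.60 to 10.06), 50 were past the threshold (9.16%), 7.51% of the 546 being higher and 1.65% lower. In that range 8.06% of genes had a difference above that of Bag6 and 8.06% one below that of Get1. The part of the Actb and Gapdh gaps in any of these values was not tested.

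**Figure D3:**
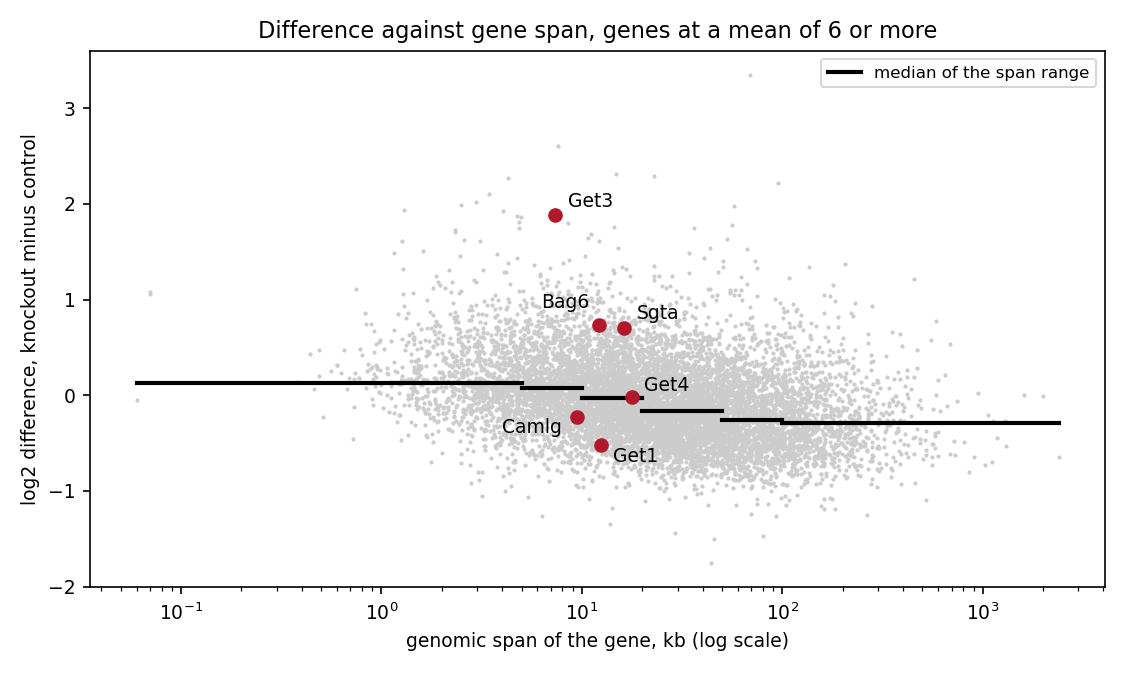
Log2 difference, knockout minus control, against genomic span (log scale) for genes averaging at least 6 (grey points), with the median of each span range as a black line and the 6 delivery genes in red. The medians fall from 0.13 under 5 kb to -0.29 over 100 kb, while the delivery genes, all between 7.36 and 17.73 kb, range from -0.52 to 1.88.

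By pattern over the 4 arrays, the genes most like Get3 were Lsm2, Ifitm2, Epop, Smn1 and Mlf2. Likeness was the distance between array values after each gene's own mean was subtracted, over genes averaging at least 6, and ran from 0.131 for Lsm2 to 0.227 for Mlf2 (log2 units). Their differences between knockout and control lay between 1.71 (Epop) and 1.93 (Lsm2), next to 1.88 for Get3. The probe sets of Epop and Mlf2 are of the kind that can match transcripts of several genes. The measure depends on the size of the difference as well as on its pattern. None of the other delivery genes was among them, which their smaller differences (-0.52 to 0.74) fixed in advance.

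The mRNAs of tail-anchored proteins of the secretory pathway were read from a further list, which is not limited to proteins known to depend on Get3. Of 30 measured genes 1 rose, none fell, and the median difference was -0.05. The share called was 4.14% over all genes and 9.16% in the delivery genes' range of span and level. The gene that rose was Hmox1, a haem oxygenase anchored in the ER (0.75 ± 0.14, SE, limma adjusted p = 0.0405). Its values were 8.44 and 8.46 against 7.63 and 7.77 in the control, without overlap, and no gene of the list passed with 1 array left out or with an intensity trend in the fit. With a robust fit, with a minimum mean of 5 or after removal of the span trend, 1 gene of the list was called higher and 1 lower, and with a minimum mean of 6 the counts were 2 and 1. Unadjusted, 11 of the 30 had a p under 0.05, against 4353 of the 18193 genes. The client Sec61b differed by 0.34 (adjusted p = 0.198), the vesicle SNARE Vamp2 by 0.31 (adjusted p = 0.465) and the ER stress-associated Serp1 by -0.62 (adjusted p = 0.0512), 3 genes named after their values were seen.

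Tail-anchored proteins of mitochondria and peroxisomes, with proteins that insert or extract them, gave 1 rise and 1 fall among 16 measured genes, with a median of 0.30. Over all genes 4.14% passed, and 9.16% did in the delivery genes' range of span and level. With a second quantile normalization 3 genes of the list rose and 1 fell, and with a minimum mean of 6 the counts were 2 and 1. Tomm7, a small subunit of the mitochondrial import pore, averaged 11.76 ± 0.33 on knockout arrays against 10.89 ± 0.09 on control arrays (SD, 2 arrays each), without overlap (0.87 ± 0.18, SE, limma adjusted p = 0.0482). Its other bright probe sets differed by 0.64 and 0.38. Atad1, an ATPase that pulls misdirected tail-anchored proteins out of the mitochondrial outer membrane, fell from 9.83 and 9.86 to 9.09 and 8.95 (-0.83 ± 0.13, SE, adjusted p = 0.0347). A second bright Atad1 probe set differed by -0.91. Atad1 spans 67.23 kb, in a range (50 to 100 kb) with a median of -0.26, and no gene of the list passed after the span trend was removed, with all probe sets of each gene averaged, or with any 1 array left out.

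Other ways into the ER membrane were compared with the same fit. Over all genes 1.98% were called higher, and 7.51% were in the delivery genes' range of span and level. In a list of 16 genes of the ER membrane protein complex (EMC), which also inserts tail-anchored proteins, and of other insertases, 3 rose and none fell, with a median of 0.15. They were Ncln, a subunit of an ER translocon for multispanning proteins (1.09 ± 0.15, SE, limma adjusted p = 0.0283), Oxa1l, the insertase of the mitochondrial inner membrane (1.05 ± 0.16, SE, adjusted p = 0.0317), and the EMC subunit Emc8 (0.75 ± 0.14, SE, adjusted p = 0.0426). Other bright probe sets differed by -0.29 for Oxa1l and by -0.25 for Emc8, against the direction of the first. Emc3, which like Get1 belongs to the Oxa1 family, differed by -0.61 (adjusted p = 0.0712, named after its value was seen). No gene of the list passed with any 1 array left out, and 1 did when probe sets were averaged.

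In the list of the signal recognition particle and the SEC61 channel, the route for proteins recognised during translation, 2 of 23 genes rose, none fell, and the median was 0.04. The share called higher was 1.98% over all genes and 7.51% in the delivery genes' range of span and level. Ssr2, a subunit of the translocon-associated complex, rose from 9.45 and 9.66 to 10.76 and 10.79 (1.22 ± 0.14, SE, limma adjusted p = 0.0186). Ssr4, of the same complex, rose by 0.996 ± 0.16 (SE, adjusted p = 0.0352), on a probe set of the kind that can match transcripts of several genes, while its other bright probe sets differed by 0.19 and 0.06. Without control replicate 1, 1 gene of the list passed, without any other single array none did, and 1 did when probe sets were averaged. Among 21 genes that act with Bag6 in the triage of misdirected proteins and in ER-associated degradation, none passed in limma. Unadjusted, 6 of the 21 had a p under 0.05, a share near that over all genes (4353 of 18193), and the median was 0.002. With probe sets averaged, 2 genes of the list passed. The largest difference was that of Sgtb, the relative of Sgta (0.79 ± 0.27, SE, adjusted p = 0.129), whose control arrays read 6.13 and 5.24. Rnf126, the ubiquitin ligase that Bag6 recruits, differed by 0.33 (adjusted p = 0.188, named after its value was seen).

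**Figure D4:**
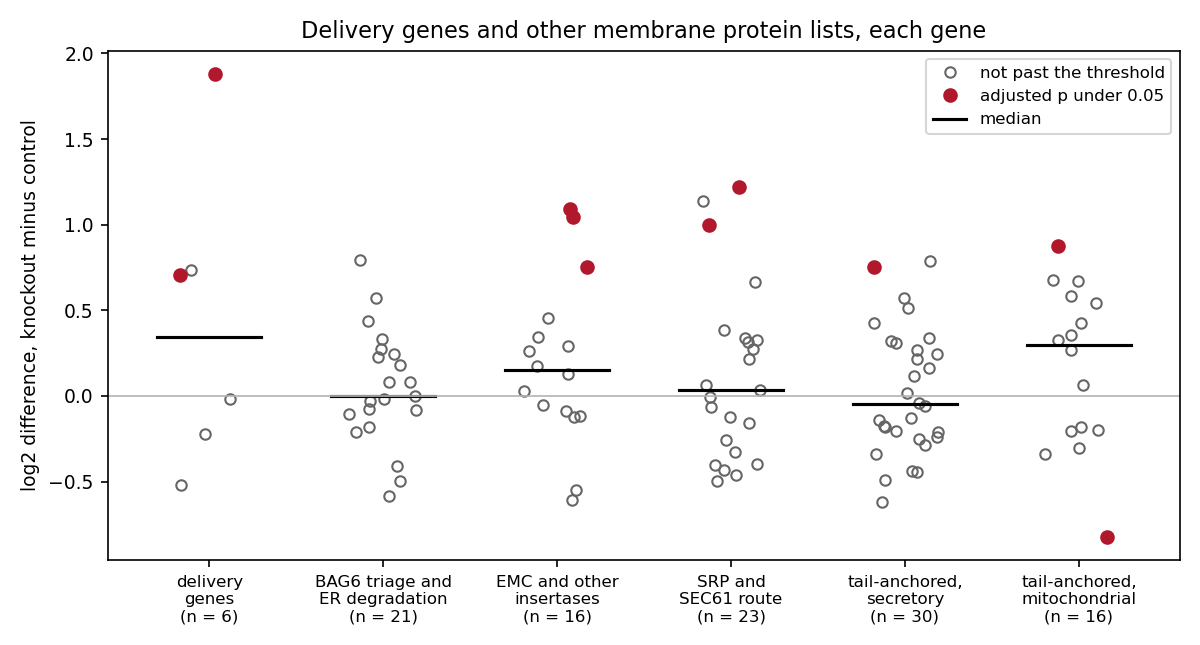
Log2 difference, knockout minus control, of every measured gene (points, spread sideways for view) in the delivery route and in 5 related lists, with each list's median as a line; filled points passed an adjusted p of 0.05 over all genes. The delivery genes span -0.52 to 1.88, and no gene of the other lists reaches the difference of Get3, the nearest being Ssr2 at 1.22. The pathway was chosen by the difference of Get3, so its place above the other lists is a description only.

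Across the processing settings the order of the delivery genes was steady at its upper end. Get3 was above Bag6 and Sgta, and these were above Get4, Camlg and Get1, in the fit as reported and in all 13 others. Camlg ranged from -0.31 to -0.15 and was never called. Get4 ranged from -0.17 to 0.13. Get1 ranged from -0.61 to -0.43 on its bright probe set.

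**Figure D5:**
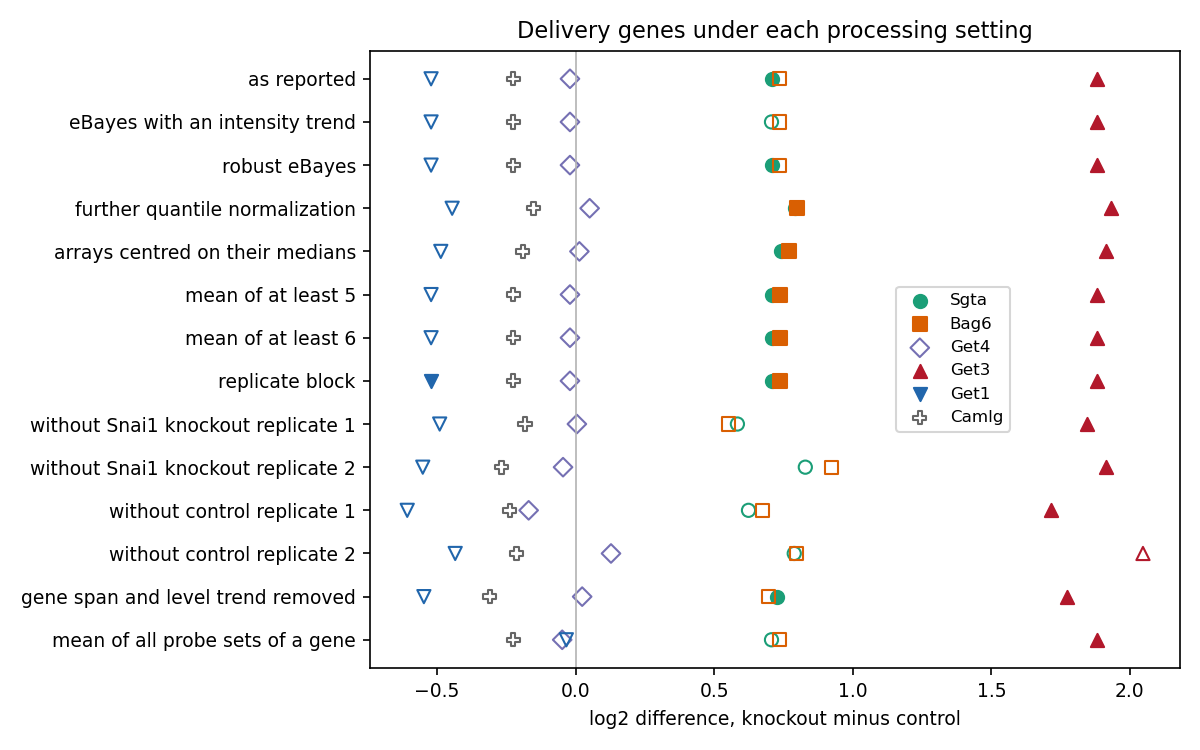
Log2 difference, knockout minus control, of the 6 delivery genes (symbols) in the fit as reported and under 13 other settings; filled symbols passed an adjusted p of 0.05. Get3 stays between 1.71 and 2.05, Bag6 and Sgta between 0.55 and 0.92, Get4 straddles 0, and Get1 approaches 0 only where its dimmer probe set is averaged in.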

How the data were processed

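The data are 4 Affymetrix arrays of mouse ES cells, 2 from Snai1 knockout and 2 from control samples, grouped by sample title. The deposited values were log2 expression values for 45101 probe sets, which the authors made with RMA, per the submitters' processing notes. No source used here gives versions or settings. RMA includes a quantile normalization, so a shift common to most genes would not be seen. Array medians lay between 4.91 and 4.95, and no further scaling was applied. The number of arrays limits the precision.

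Probe sets were named by the platform annotation of GEO. Of them 34945 had 1 symbol, 932 several and 9160 none, with 64 control probe sets set aside. Gene span came from RefSeq (GRCm38.p6), which gave one for 99.1% of genes. The knockout minus control difference was fitted with limma 3.58.1 in R 4.3.3 (lmFit and eBayes, 2 residual and 5.31 prior degrees of freedom), two-sided, once over genes (brightest probe set each) and once over all 34945 probe sets, with Benjamini-Hochberg adjustment at 0.05. ± is the SD of 2 arrays or limma's SE. The script was tested on simulated data. Alternatives were an intensity trend or robust eBayes, a second quantile normalization, median centring, minimum means of 5 and 6, a replicate block, each array left out, removal of the span and level trend (loess, span 0.3), and the mean of all probe sets. Named were all member probe sets, and from each list up to 4 genes past the threshold or the 1 with the largest difference. The 5 genes most like Get3 were named by distance. The members and lists were chosen with earlier results of these data known.

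The lists of ES cell and feeder markers were read as checks. The share of all genes called higher was 1.98% and the share called lower 2.17%. Of 8 ES cell markers 4 rose (Utf1, Esrrb, Nanog and Pou5f1) and none fell, and 3 were called with probe sets averaged. Other bright probe sets differed by 0.10 for Esrrb and by 0.61 for Utf1. Of 23 feeder markers Ccl2 rose and none fell, and 1 was called lower with minimum means of 5 and 6. No feeder marker passed with an intensity trend, after removal of the span trend or with probe sets averaged. The feeder marker with the largest difference was Prrx1 (-1.24, limma adjusted p = 0.0549).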

Additional observations from a re-analysis of the deposited data

How the results depend on the processing

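The count of genes past the threshold, 754 with all arrays, was 481 with an intensity trend, 1224 with a minimum mean of 6, 321 when each gene's probe sets were averaged, and 4 (without control replicate 2) to 50 (without control replicate 1) with 1 array left out. The count of probe sets, 276, was 620 with a robust fit, 721 after a second quantile normalization, 575 and 772 with minimum means of 5 and 6, 516 after removal of the span trend, and 0 to 182 with 1 array left out. Of the delivery genes, 2 as reported, 1 passed with an intensity trend or with all probe sets averaged, and 0 to 1 with 1 array left out. Of their probe sets 0 to 1 passed with 1 array left out. Same-numbered arrays deviated together over genes (r = 0.294, and 0.409 over genes averaging at least 6), but with 2 pairs the numbers are not shown to pair the samples. With the replicate block 3092 of 18193 genes and 2343 of 34945 probe sets passed. So did 4 of 6 delivery genes (Get1 lower, with Get3, Sgta and Bag6 higher) and 2 of their 8 probe sets. The list counts with the block are to be read beside that share of all genes. They were 4 of 21 for the Bag6 triage list (2 higher, 2 lower) and 6 of 30 for the secretory tail-anchored list (4 higher, 2 lower). Of 23 feeder markers 8 passed (2 higher, 6 lower). The mitochondrial list had 6 of 16 (5 higher, 1 lower), the SEC61 list 6 of 23 (4 higher, 2 lower) and the EMC list 5 of 16 (3 higher, 2 lower). The difference of Get4 changed sign, staying near 0. In the gene fit it was 0.051 after a second quantile normalization, 0.014 after median centring, 0.024 after removal of the span trend, and from -0.169 (without control replicate 1) to 0.128 (without control replicate 2) with 1 array left out, including 0.005 without knockout replicate 1. In the probe set fit the brighter set gave 0.025 after a second quantile normalization and the same values with arrays left out, and the dimmer gave -0.154 to 0.002 without control replicates 1 and 2. No cause of these changes was tested.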
